A study of Mus musculus with 6 samples.

Results

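The expressed Zfp genes of MB49 cells are described here, a set of 252 autosomal protein-coding genes whose symbols begin with Zfp and a number. MB49 is a mouse line of bladder cancer cells that derives from a male. Bulk RNA-seq compared 3 libraries of CRISPR Y-KO cells, labelled as a knockout of the Y chromosome, with 3 libraries of CRISPR Y-Scr cells, which carry a non-targeting guide RNA. The protocol shared by both groups has transduced cells sorted for red fluorescence (tRFP) and expanded from single cells, and all 6 libraries are labelled batch 1. The labels name no guide for Y-KO and do not tell separate cultures or clones from repeat libraries, so p-values measure only the spread between libraries, which may be technical. A group may also be a single clone, and what Y-KO shares apart from the Y chromosome cannot be told apart from the knockout.

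The table named 416 genes in this way, of which 394 were protein-coding and 385 of those lay on autosomes. Members were selected on expression, as those with at least 400 counts summed over the 6 libraries, which left out 133 genes, 40 of them with 0 counts. The sum uses both groups together and no difference between them, though a gene near the minimum can pass through its higher group. The members nearest above the minimum were Zfp979 with 419 counts and Zfp213 with 420, and the nearest genes below it were Zfp94 and Zfp983 with 397 each. All 252 members passed the low-count filter of the test.

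Most Zfp genes encode proteins with tandem C2H2 zinc fingers, which read DNA sequence. Many of these also carry a KRAB domain, which binds the corepressor Trim28 (KAP1). Trim28 brings the histone methyltransferase Setdb1, HP1 proteins and the NuRD complex to the site that the fingers bind, and in mouse cells many KRAB proteins silence endogenous retroviruses in this way. KRAB genes lie in clusters that grew by gene duplication. A few genes with a Zfp symbol belong elsewhere, such as Zfp36, Zfp36l1 and Zfp36l2, whose CCCH fingers bind AU-rich elements in mRNA.

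The libraries held between 15698510 and 24633158 counts. Y-linked genes had 31, 57 and 36 counts in the Y-KO libraries, against 6922, 7311 and 9171 in the Y-Scr libraries. Of 9 urothelial markers, which summed to 2.95 to 3.98 CPM (counts scaled to library size) in Y-KO and 7.92 to 8.54 CPM in Y-Scr, nearly all counts were of Gata3 (means of 2.81 CPM in Y-KO and 7.80 CPM in Y-Scr), and Krt20 and Upk3a were at 0. Of 5 mesenchymal markers, Vim was abundant (means of 5260 CPM in Y-KO and 4801 CPM in Y-Scr), Col1a1 was low (1.44 CPM in Y-KO and 2.15 CPM in Y-Scr), Col1a2 and Acta2 were near 0 and Pdgfrb was at 0, so most defining markers of either type were absent or near 0. Of 7 blood cell markers, 5 were at 0 in all libraries. In bulk RNA, fewer cells that express a gene and less RNA per cell cannot be told apart.

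The promoters of 5 genes of a chromosome 7 cluster are shown because that cluster had the lowest median of all, with Zfp658, Zfp719, Zfp715 and Zfp976 lower in Y-KO and Zfp141 not past the threshold. The sequences are RefSeq's for GRCm38.p6, 5′ to 3′ on the gene's strand, ending at the base before the RefSeq start, or, for Zfp658, before the start of the gene in the deposited table. Capitals mark the motifs that were searched for: GCGCA followed at once by its reverse complement (NRF1), CCGGAAG (ETS), GGGCGG (SP/KLF GC box), TGACGT (cAMP response element core), a pair of GAAA with 2 bases between (interferon response core) and GGGA, 2 bases and TTCC (NF-κB), each on both strands. The intervals are chr7:43562120-43562255 on the plus strand for Zfp658, chr7:43579336-43579585 on the plus strand for Zfp719, chr7:42505754-42506003 on the minus strand for Zfp141, chr7:43313301-43313550 on the minus strand for Zfp715 and chr7:42642605-42642854 on the minus strand for Zfp976.
Zfp658: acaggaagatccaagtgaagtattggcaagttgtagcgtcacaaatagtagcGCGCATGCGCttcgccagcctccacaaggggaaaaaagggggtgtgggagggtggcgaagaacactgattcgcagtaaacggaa
Zfp719: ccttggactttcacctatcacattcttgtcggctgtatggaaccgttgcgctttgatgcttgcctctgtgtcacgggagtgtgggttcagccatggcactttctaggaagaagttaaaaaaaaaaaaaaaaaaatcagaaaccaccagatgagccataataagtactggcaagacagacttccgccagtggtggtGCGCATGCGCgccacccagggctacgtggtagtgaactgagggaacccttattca
Zfp141: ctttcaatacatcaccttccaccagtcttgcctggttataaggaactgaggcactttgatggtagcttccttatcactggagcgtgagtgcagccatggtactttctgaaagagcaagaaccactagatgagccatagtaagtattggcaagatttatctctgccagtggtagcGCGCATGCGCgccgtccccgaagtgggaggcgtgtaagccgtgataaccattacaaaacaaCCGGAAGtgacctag
Zfp715: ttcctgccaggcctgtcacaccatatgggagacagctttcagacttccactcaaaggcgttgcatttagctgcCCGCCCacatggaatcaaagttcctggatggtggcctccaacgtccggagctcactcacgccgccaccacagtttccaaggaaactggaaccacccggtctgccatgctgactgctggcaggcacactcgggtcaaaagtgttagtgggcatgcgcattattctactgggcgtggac
Zfp976: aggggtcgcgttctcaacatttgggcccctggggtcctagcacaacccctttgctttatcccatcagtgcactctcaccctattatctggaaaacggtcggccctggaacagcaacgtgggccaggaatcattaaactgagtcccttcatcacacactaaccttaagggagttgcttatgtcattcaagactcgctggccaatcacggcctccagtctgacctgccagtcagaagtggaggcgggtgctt
The NRF1 motif stood in 3 of these 5 windows, that of Zfp141 included, Zfp715 held only a GC box and Zfp976 held none of the motifs. The stretch shown for Zfp658 is 136 bases long, and the full 250 bases before its RefSeq start also hold a GC box. Over the 250 bases before the start, promoters were found for 211 of 252 members, 61 of the 65 that fell and 25 of the 36 that rose. The NRF1 motif was in 4 of the 61 and 0 of the 25, against 2.84% of the 211 members and 0.785% of 25748 autosomal promoters, and those 4 are Zfp658, Zfp719, Zfp639 (log2 fold change -0.44) and Zfp653 (-0.54, edgeR adjusted p = 0.042, and not past the threshold without any single Y-KO library or the third Y-Scr library, with adjusted p up to 0.38). The ETS motif was in 16 of the 61 and 1 of the 25, against 17.5% of the 211 members and 7.17% of all. The GC box was in 23 of the 61 and 12 of the 25, against 40.8% of the 211 and 33.3% of all, and the cAMP response element core in 6 and 4, against 11.8% and 6.60%. The interferon response core was in 2 and 0, against 1.90% of the 211 and 3.03% of all, and the NF-κB motif in 1 and 0, against 2.84% and 1.14%. These matches are descriptions of the letters in the windows, and the motifs and genes shown were chosen after expression values were seen.

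Of the 252 members, 36 rose and 65 fell in Y-KO (edgeR quasi-likelihood test, adjusted p under 0.05, Benjamini-Hochberg over 12907 genes), and 151 did not pass. Without the second Y-KO library 23 rose. With each library's dependence on GC content and gene length removed, as described further on, 44 rose (17.5%) and 41 fell (16.3%). The members' median log2 fold change was then 0.02. In that fit, 29.6% of the other autosomal protein-coding genes with 400 or more counts rose and 21.1% fell, with a median of 0.06. Without that removal, 20.7% of all genes tested rose and 23.0% fell. Among the 9350 other autosomal protein-coding genes with 400 or more counts, 25.2% rose and 25.2% fell, so the share of members that fell (25.8%) was near the background and the share that rose (14.3%) was below it. The median log2 fold change of the members was -0.09, against 0.01 for the other genes. Changes were mostly small: 26 of the 65 that fell and 7 of the 36 that rose passed 1.5-fold. The groups' CPM did not overlap for 122 of 252 members, against 59.2% of the other genes and 52.9% of all genes tested.

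A KRAB domain was found in 128 of the translated proteins, and of these genes 4 rose (3.13%) and 48 fell (37.5%), against 25.2% each among the other genes, with a median log2 fold change of -0.22. Without the second Y-Scr library 2 of them rose. Of the 124 without KRAB, 32 rose (25.8%) and 17 fell (13.7%), with a median of 0.05. The share that rose was near that of the other genes, and the share that fell was below it. Without the second Y-KO library 20 of these 124 rose. Here and below, without KRAB means no match in the longest coding sequence, which does not show that the domain is absent. The classes were not compared by a test, since genes of 1 cell line are not replicates. Summed over the 128 KRAB genes, expression was 1697, 1695 and 1696 CPM in the Y-KO libraries, against 2096, 2093 and 1916 CPM in the Y-Scr libraries. All Y-KO libraries lay below all Y-Scr libraries, and the third Y-Scr library was the closest to them. The members without KRAB summed to 4440, 4600 and 4515 CPM in Y-KO, against 4468, 4303 and 4292 CPM in Y-Scr, and these ranges overlapped.

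Of 35 KRAB genes that carry other names and had 400 or more counts, 1 rose and 14 fell, with a median of -0.33; without the second Y-Scr library 9 fell. The lowest were 2010315B03Rik at -1.12 ± 0.14 (log2 fold change ± SE, adjusted p = 4.1e-06) and AU041133 at -1.01 ± 0.20 (adjusted p = 5.0e-04), both edgeR values. C2H2 genes with other names and no KRAB had 21 that rose and 25 that fell of 111, with a median of 0.07. Within the KRAB members, the median by number of fingers was -0.18 for the 36 with under 10 fingers, -0.19 for the 55 with 10 to 14 and -0.25 for the 37 with 15 or more; with the GC and length trend removed it was -0.04 in all 3 bins. None of the 9 members with a SCAN domain rose and 2 fell (22.2%), a share near the 23.0% of all genes tested. Of these 9, 5 were without KRAB.

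**Figure D1:**
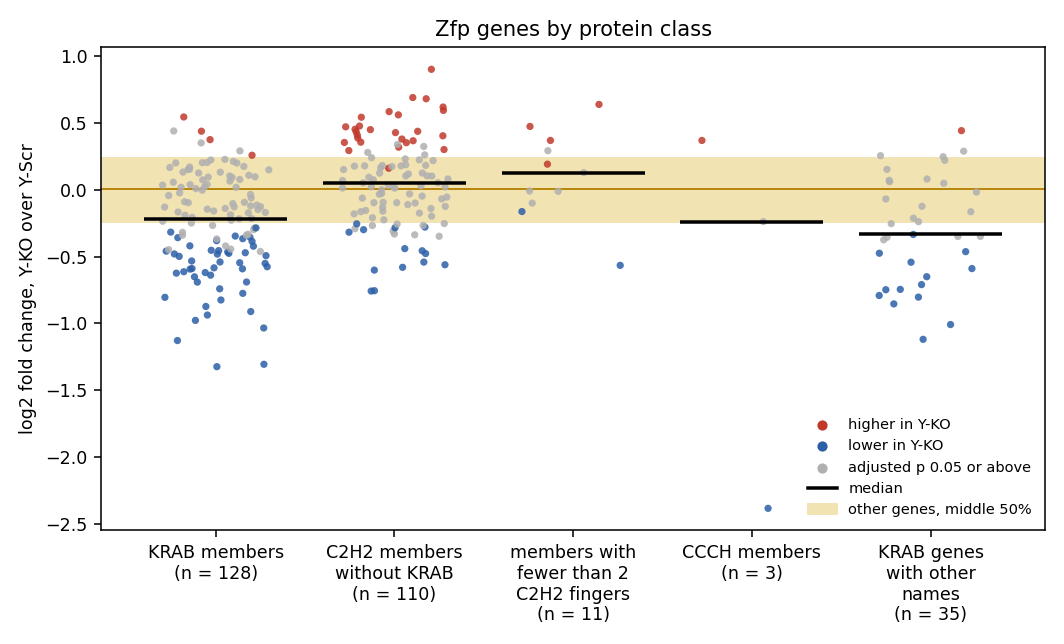
Log2 fold change of Y-KO over Y-Scr (vertical axis) for each member by protein class, and for KRAB genes with other names; points are genes coloured by call, black bars are medians and the band holds the middle 50% of 9350 other genes. The median of the 128 KRAB members lies at -0.22 and that of the 110 C2H2 members without KRAB at 0.05.

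Transcript GC content moved with these results. The median GC content was 42.2% for KRAB members, 50.6% for members without KRAB and 50.3% for the other genes. Spearman's rho between GC content and log2 fold change, across genes that share the same 6 libraries, was 0.46 over the 128 KRAB members, 0.32 over the 124 without KRAB and 0.16 over 9343 other genes. For gene length, rho was 0.28 over the KRAB members, 0.19 over those without KRAB and 0.31 over the other genes. Below 40% GC, 21 of 36 KRAB members fell and 0 rose, with a median of -0.40. The 244 other genes of that band had a median of -0.13, but were longer (median length 6443 bases, against 3218 for the KRAB members). The bands match GC content only. From 40 to 44% the medians were -0.33 for 46 KRAB members and -0.08 for 1253 other genes. From 44 to 48% they were 0.04 for 24 KRAB members and -0.02 for 2010 other genes, and from 48 to 52% they were 0.02 for 9 and 0.01 for 2012. At 52% and above they were 0.06 for 13 KRAB members and 0.07 for 3824 other genes.

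The GC trend also differed between libraries of the Y-Scr group. Other genes under 44% GC had median deviations from the mean of the 6 libraries (log2 of CPM plus 0.5) of -0.05, -0.06 and -0.02 in Y-KO, against 0.08, 0.07 and -0.02 in Y-Scr. All 128 KRAB members, of any GC content, had -0.11, -0.10 and -0.10 in Y-KO, against 0.16, 0.14 and 0.06 in Y-Scr. For the other genes under 44% GC the third Y-Scr library was level with Y-KO. For the KRAB members it was not, but these sets were not matched for GC content or length. Without the third Y-Scr library, 52 KRAB members fell.

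With the dependence of each library on GC content and gene length fitted and taken out (the trend removed), 13 KRAB members rose and 21 fell, with a median of -0.04. In that fit 29.6% of the other genes rose and 21.1% fell, around a median of 0.06. The shares of KRAB members that rose (10.2%) and that fell (16.4%) were both below these. Of the 124 members without KRAB, 31 rose (25.0%) and 20 fell (16.1%) in that fit, with a median of 0.08. Of the 48 KRAB members that fell with the trend left in, 18 passed in the same direction with it removed and none in the opposite one. Of the 17 members without KRAB that fell with the trend left in, 15 did so, and of the 36 members that rose, 27. The KRAB genes with other names had 5 that rose and 5 that fell in that fit, with a median of 0.06. The count of KRAB genes that fell thus depended on whether the trend was left in or removed, and values with the trend removed are given below where they change a call.

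**Figure D2:**
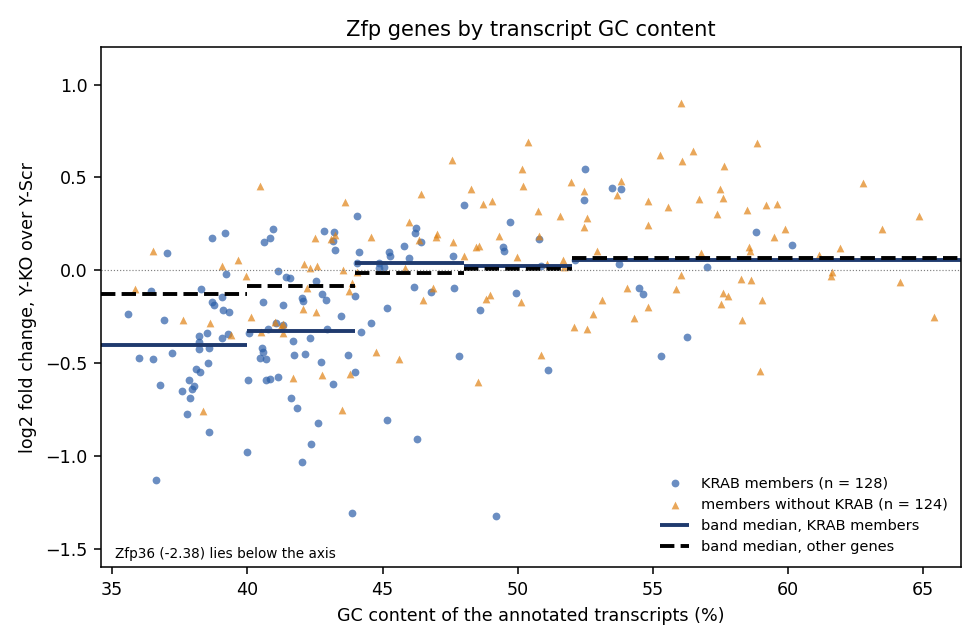
GC content of the annotated transcripts in percent (horizontal axis) and log2 fold change of Y-KO over Y-Scr (vertical axis) for 128 KRAB members (circles) and 124 members without KRAB (triangles); solid and dashed lines are medians per GC band for KRAB members and for other genes. Below 40% GC the KRAB median is -0.40 and that of the other genes -0.13.

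The largest change of any member was in Zfp36 (tristetraprolin), which binds AU-rich elements and promotes the decay of mRNAs such as that of tumour necrosis factor. Zfp36 (ENSMUSG00000044786, chromosome 7, 28376784 to 28380253, minus strand, GRCm38) had 12.6, 9.15 and 11.9 CPM in Y-KO, against 58.8, 56.0 and 61.3 CPM in Y-Scr. Every Y-KO library lay far below every Y-Scr library, by 5.22-fold in the fit (log2 fold change -2.38 ± 0.11 SE, edgeR adjusted p = 1.8e-12; -2.36 with the trend removed). Zfp36l2, a paralog with the same kind of RNA-binding fingers, rose, with 333, 341 and 350 CPM in Y-KO, against 269, 263 and 260 CPM in Y-Scr (0.37 ± 0.06, adjusted p = 5.5e-05). Zfp36l2 was also the most abundant member per kilobase, at 85.7 CPM per kb averaged over the 6 libraries. The third paralog, Zfp36l1, had 17.7, 20.3 and 15.6 CPM in Y-KO, against 22.9, 22.1 and 18.3 CPM in Y-Scr, which overlapped and did not pass (-0.24 ± 0.12, adjusted p = 0.12; adjusted p = 0.031 without the third Y-Scr library).

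Among KRAB genes the lowest were Zfp658 and Zfp719, the neighbours whose promoters are printed above. Zfp719 (ENSMUSG00000030469, chromosome 7, 43579610 to 43593235, plus strand, GRCm38) had 16.3, 18.4 and 16.4 CPM in Y-KO, against 44.9, 46.2 and 35.4 CPM in Y-Scr (-1.31 ± 0.11, adjusted p = 1.6e-08). Zfp658 (ENSMUSG00000056592, chromosome 7, 43562256 to 43575461, plus strand, GRCm38) had 4.03, 4.29 and 3.06 CPM in Y-KO, against 9.87, 9.68 and 8.98 CPM in Y-Scr (-1.32 ± 0.18, adjusted p = 8.9e-06). In both genes the groups were separated by more than their spread, and both fell with the trend removed, by 1.14 for Zfp719 and 1.17 for Zfp658 on the log2 scale. Zfp715 of the same cluster had 17.8, 16.7 and 17.8 CPM in Y-KO, against 33.0, 32.3 and 27.7 CPM in Y-Scr (-0.82 ± 0.10, adjusted p = 2.7e-06). Zfp867 on chromosome 11 had 11.9, 9.02 and 10.5 CPM in Y-KO, against 20.8, 24.3 and 19.5 CPM in Y-Scr (-1.03 ± 0.13, adjusted p = 3.2e-06). The groups did not overlap in either gene, and both fell with the trend removed, by 0.65 for Zfp715 and 0.74 for Zfp867.

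Of the 10 next falls, 8 were in KRAB genes. Zfp979 (-1.13), Zfp955a (-0.98), Zfp429 (-0.94), Zfp949 (-0.91), Zfp119b (-0.87), Zfp941 (-0.80), Zfp958 (-0.77) and Zfp617 (-0.74) carry KRAB, while Zfp729b (-0.76) and Zfp655 (-0.75) had no KRAB match in the translated protein. Of these 10 log2 fold changes, only that of Zfp119b did not pass with the trend removed (-0.38, adjusted p = 0.11), and that of Zfp958 was -0.26. Zfp955a, Zfp119b and Zfp729b each have a close copy, Zfp955b, Zfp119a and Zfp729a, between which reads could have been split, so their values are uncertain. Zfp655 had 66.7, 60.4 and 72.0 CPM in Y-KO, against 110, 123 and 103 CPM in Y-Scr, with no overlap.

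The largest rises were in genes without KRAB. Zfp512b, whose human form binds the NuRD complex, had 25.0, 29.4 and 25.8 CPM in Y-KO, against 15.4, 13.7 and 13.7 CPM in Y-Scr (0.90 ± 0.11, adjusted p = 1.8e-06). The groups did not overlap, and the gene rose by 0.72 with the trend removed. Zfp106, an RNA-binding protein, had 176, 187 and 177 CPM in Y-KO, against 122, 118 and 118 CPM in Y-Scr (0.60 ± 0.06, adjusted p = 2.4e-07). Zfp687, whose human form works in a chromatin module with ZNF592 and ZMYND8, had 27.4, 29.4 and 26.3 CPM in Y-KO, against 19.6, 16.6 and 19.1 CPM in Y-Scr (0.59 ± 0.10, adjusted p = 1.3e-04). In both the groups stood apart.

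Further rises, as log2 fold changes past the threshold, were in Zfp652 (0.69), whose human form binds a CBFA2T3 corepressor, in Zfp462 (0.54), which is linked to heterochromatin in embryonic stem cells, in Zfp609 (0.48), which binds the Integrator complex, and in Zfp385a (0.47), a cofactor of p53. Zfp651 (0.68), Zfp395 (0.64), Zfp629 (0.62), Zfp553 (0.56), Zfp251 (0.48), Zfp292 (0.45) and Zfp41 (0.45) rose as well, of which Zfp41 lost its call without the second Y-KO (adjusted p = 0.074) or the third Y-Scr library (adjusted p = 0.069). Zfp764 (0.55) was the KRAB gene with the largest rise, at 11.9, 11.6 and 11.4 CPM in Y-KO, against 6.71, 8.11 and 8.94 CPM in Y-Scr. It is 1 of 4 KRAB members that rose.

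**Figure D3:**
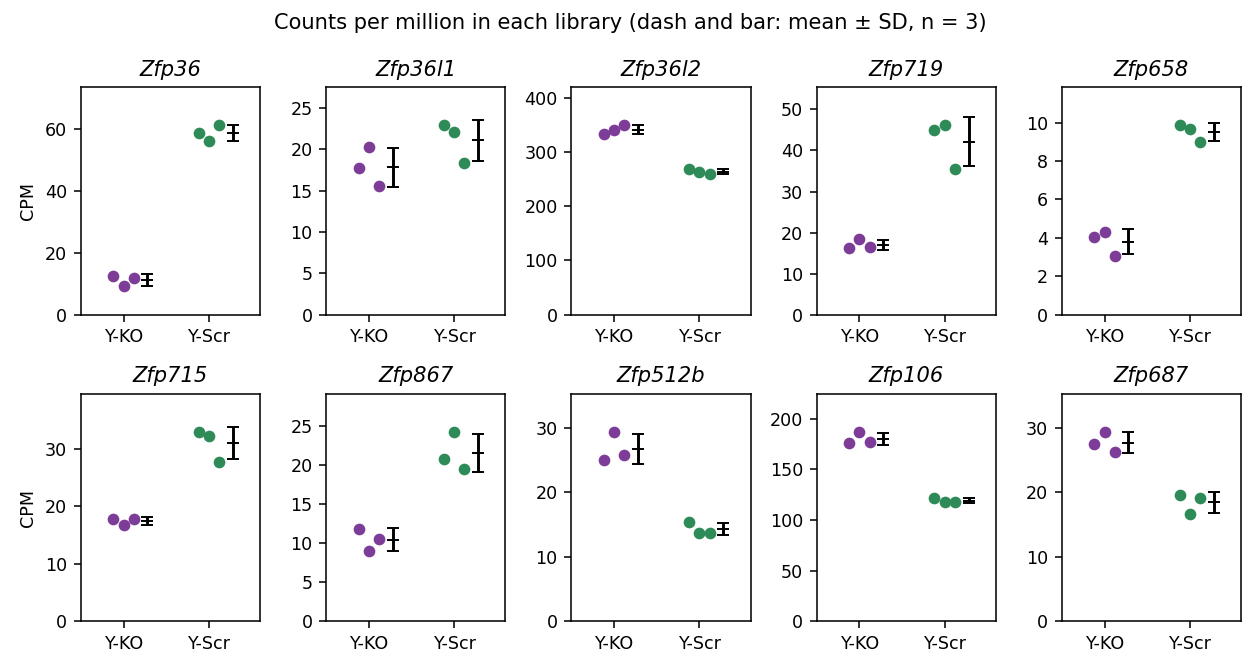
CPM of 10 members in each library (vertical axis, from 0), Y-KO left and Y-Scr right, with the mean and SD of 3 libraries beside the points. In 9 of the 10 genes the groups do not overlap, and in Zfp36l1 they do.

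Of 6 KRAB genes with a known target or partner, 3 did not pass. Zfp57 and Zfp445, which keep DNA methylation at imprinted regions, did not pass: Zfp57 had 25.9, 26.5 and 27.6 CPM in Y-KO, against 26.1, 27.3 and 33.5 CPM in Y-Scr (-0.13 ± 0.10, adjusted p = 0.35), and Zfp445 had 68.2, 78.7 and 66.5 CPM in Y-KO, against 71.3, 63.1 and 67.8 CPM in Y-Scr (0.08 ± 0.08, adjusted p = 0.47). Zfp809, which silences murine leukaemia viruses, did not pass either (-0.09 ± 0.18, adjusted p = 0.72), and its sign differed without the third Y-KO library (0.03) or the first Y-Scr library (0.12). The log2 fold change of Zfp932, which represses a class of endogenous retroviruses, was -0.35 ± 0.14 and just passed (adjusted p = 0.045), but was 0.07 with the trend removed. Zfp568, which silences a placental Igf2 transcript, rose by 0.26 ± 0.10 at the threshold (adjusted p = 0.0497), and this call was lost with the trend removed (adjusted p = 0.090). Leaving out 1 library also ended the call of Zfp932 and of Zfp568 for 5 of the 6 libraries each, with adjusted p up to 0.16 and 0.20 without the library that mattered most to each, the third Y-Scr library for Zfp932 and the second for Zfp568. Zfp110, which binds the neurotrophin receptor p75, fell, with 58.7, 57.5 and 58.3 CPM in Y-KO, against 77.2, 84.1 and 79.5 CPM in Y-Scr (-0.46 ± 0.07, adjusted p = 3.6e-05).

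Among members with other roles, Zfp598, a ubiquitin ligase for collided ribosomes, was lower (-0.16 ± 0.06, adjusted p = 0.049) and Zfp91, a ubiquitin ligase, was higher (0.16 ± 0.06, adjusted p = 0.040), both close to the threshold. Leaving out 1 library ended both calls for 5 of the 6 libraries, with adjusted p up to 0.19 for Zfp598 without the first Y-KO library and up to 0.15 for Zfp91 without the third Y-KO library. With the trend removed Zfp91 did not pass either (adjusted p = 0.19), while Zfp598 passed as lower (-0.22, edgeR adjusted p = 0.0037). Zfp64 (0.30), Zfp335 (0.35) and Zfp318 (0.41) passed as higher, but none of the 3 did with the trend removed. Zfp335 also lost its call without the second Y-KO or the second Y-Scr library (adjusted p up to 0.13), and Zfp318 without any of 4 libraries, which were all but the third Y-KO and the first Y-Scr library (adjusted p up to 0.13). Zfp143, an activator that binds promoters, Zfp207, a kinetochore protein, and Zfp281, Zfp346, Zfp384, Zfp451, Zfp592 and Zfp692 did not pass, with log2 fold changes between -0.26 and 0.28. With the trend removed Zfp281 (0.33, adjusted p = 0.014) and Zfp346 (-0.27, adjusted p = 0.0495) did pass. Zfp143 passed without the first Y-Scr library (adjusted p = 0.013), as did Zfp592 without the first (adjusted p = 0.0088) or the third Y-Scr library (adjusted p = 0.048) and Zfp346 without the first Y-KO (adjusted p = 0.038) or the third Y-Scr library (adjusted p = 0.046).

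By position, 156 of the 252 members lay in 23 clusters, defined as at least 3 members with gaps of at most 2 Mb, and 96 lay outside. In 16 clusters at least 1 member fell and none rose, in 4 at least 1 rose and none fell, in 2 both occurred and in 1 neither did. These numbers were 8, 5, 6 and 4 with the trend removed. The median log2 fold change was below 0 in 13 of the 16 clusters made mostly of KRAB genes and in 1 of the 7 others, and with the trend removed in 11 and 2.

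The lowest median was on chromosome 7 between 41633203 and 43593235 (GRCm38), where 5 of 6 KRAB members fell, with a median of -0.71. Zfp719, Zfp658, Zfp715, Zfp788 (-0.59) and Zfp976 (-0.59) fell, the last of them not past the threshold without the second or the third Y-KO or the second or the third Y-Scr library (adjusted p up to 0.15). Zfp141 had 8.33, 6.47 and 6.63 CPM in Y-KO, against 7.66, 8.17 and 8.23 CPM in Y-Scr, which overlapped (-0.17 ± 0.16, adjusted p = 0.44). With the trend removed Zfp719, Zfp658 and Zfp715 passed, 3 of the 6, and the median was -0.48. The 7 tested neighbours in this span that are not C2H2 genes had a median of -0.37, with 1 that rose and 1 that fell.

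Chromosome 17 held 40 members, of which 20 fell and 2 rose; with the trend removed 4 fell and 4 rose. In its largest cluster, from 21008903 to 24682015, 9 of 20 members fell and 0 rose, with a median of -0.35. The 40 neighbours in that span had 13 that rose and 2 that fell, with a median of 0.15 and a median GC content of 54.9%, against 38.6% for the members. With the trend removed the members' median was -0.03, and 1 rose and 1 fell. Zfp948 of this cluster, the most abundant KRAB gene per kilobase, had 48.7, 46.7 and 47.6 CPM in Y-KO, against 66.4, 72.5 and 60.9 CPM in Y-Scr (-0.48 ± 0.08, adjusted p = 1.0e-04), and it did not pass with the trend removed (-0.09). Further along, 6 of 11 members fell between 32771236 and 33631779 (median -0.42), and with the trend removed 2 fell and 2 rose (median -0.18). The 2 neighbours tested in that span had 1 that rose and 1 that fell. Between 55864892 and 55949500, 3 of 3 fell (median -0.58), of which Zfp119a was not past the threshold without any of 4 libraries, the first or the second of either group (adjusted p up to 0.19). None of these 3 passed with the trend removed (0 of 3, median -0.19).

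On chromosome 13, between 62129886 and 67792512, 4 of 17 members fell and 0 rose, a share that fell near the 23.0% of all genes tested, with a median of -0.32. The 26 neighbours had 2 that rose and 3 that fell, with a median of -0.15. The members had 4 that fell and 2 that rose with the trend removed, with a median of 0.00. On chromosome 8, between 69209038 and 69791178, 3 of 4 fell, with a median of -0.50, and with the trend removed 1 fell, with a median of -0.19. The 3 neighbours tested in that span had 1 that rose and 0 that fell.

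Of the other chromosome 7 clusters, 4 had medians above 0. Between 127233061 and 127885996, where 4 of 10 members carry KRAB, 6 rose and 1 fell, with a median of 0.37, and with the trend removed 4 rose and 0 fell, with a median of 0.19. The 17 neighbours had 4 that rose and 0 that fell. Between 27731389 and 30169750, which holds Zfp36 and 13 KRAB genes among 17 members, 1 rose and 2 fell, with a median of 0.11, and with the trend removed 4 rose and 2 fell, with a median of 0.22. There the 37 neighbours had 6 that rose and 19 that fell, with a median of -0.27. Between 24081924 and 25227507 no member had a KRAB match in the translated protein. In that span 2 of 8 rose and 0 fell in both fits (median 0.15). The 19 neighbours had 5 that rose and 3 that fell. Between 4915217 and 7209998, 0 of 9 rose and 1 fell (median 0.08), and with the trend removed 3 fell (median -0.19). The 8 neighbours had 2 that rose and 0 that fell.

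**Figure D4:**
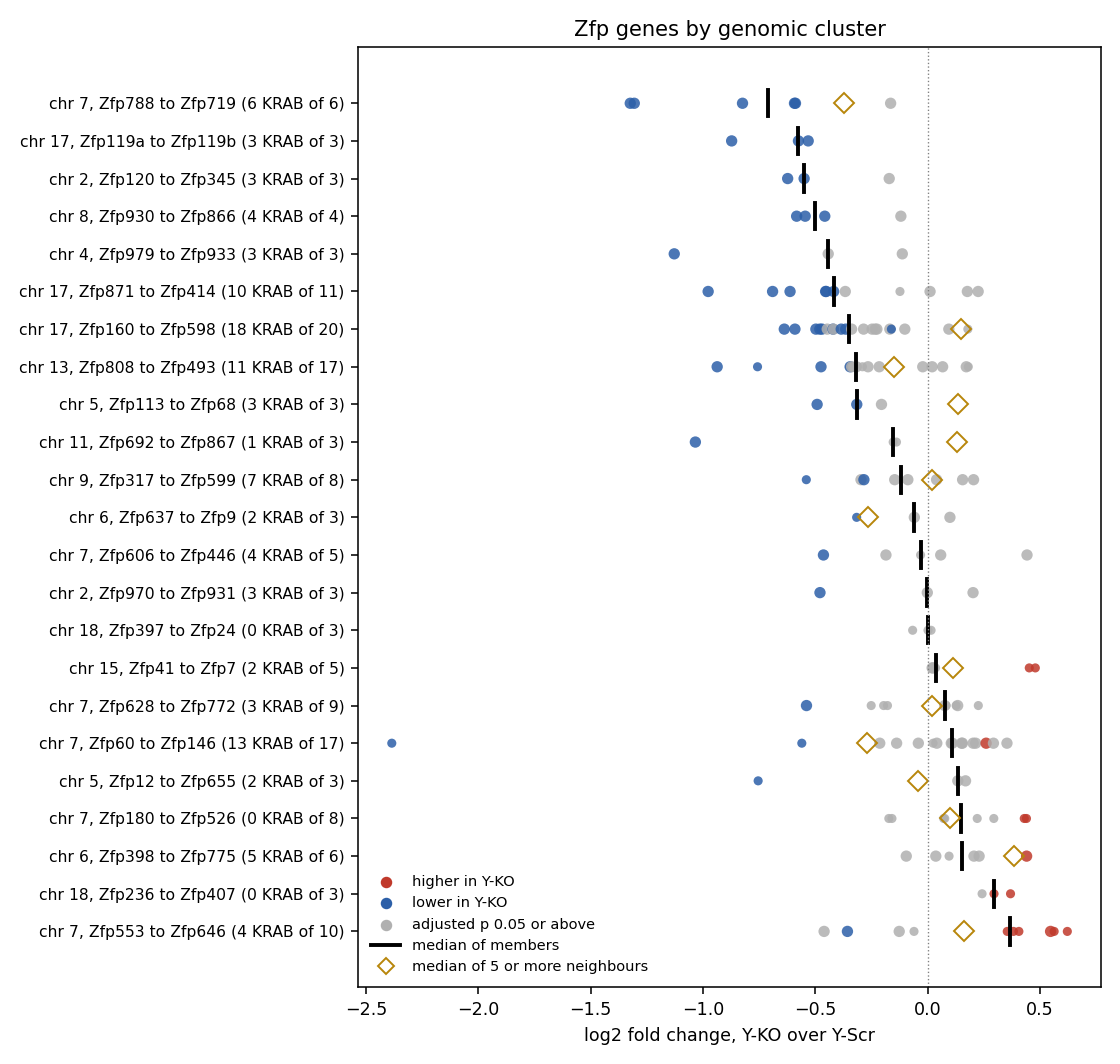
Log2 fold change of Y-KO over Y-Scr (horizontal axis) for the members of 23 genomic clusters, ordered by median and named by chromosome and by the outermost members; points are genes coloured by call, bars are medians and diamonds are medians of 5 or more tested neighbours that are not C2H2 genes. The lowest median is -0.71 and the highest 0.37.

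Of the cofactors of KRAB repression, more rose than fell. Of a list of 36 genes, 34 were tested, and 22 rose (64.7%) and 2 fell (5.88%). The list is broad and also holds Suv39h1, Suv39h2, Ehmt1, Ehmt2, Hells, Atrx and Daxx, of which all but Daxx rose. Among all genes tested 20.7% rose and 23.0% fell, and among the other autosomal protein-coding genes with 400 or more counts 25.2% each. The median log2 fold change of the list was 0.25, against -0.01 over all genes tested. Without the third Y-Scr library 4 fell, and without the first or the second Y-KO or the second Y-Scr library 1 fell. Trim28, the KRAB-binding corepressor, averaged 345 ± 7.74 CPM in Y-KO and 253 ± 14.6 CPM in Y-Scr (SD, n = 3 each; 0.45 ± 0.06). The maintenance methyltransferase Dnmt1 (0.68 ± 0.08), its partner Uhrf1 (0.63 ± 0.06), the de novo methyltransferase Dnmt3a (0.89 ± 0.11) and the NuRD remodellers Chd4 (0.57 ± 0.07) and Chd3 (0.57 ± 0.08) rose. So did Atf7ip (0.55 ± 0.08), which stabilises Setdb1, and the HP1 genes Cbx5 (0.37 ± 0.06) and Cbx3 (0.30 ± 0.07). Setdb1 itself rose by 0.20 ± 0.08, near the threshold (edgeR adjusted p = 0.049), and did not pass without the first or the second Y-KO or the second or the third Y-Scr library (adjusted p up to 0.28).

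Resf1, a partner of Setdb1 in retroviral silencing, fell by 0.64 on the log2 scale, and Rbbp4 (-0.18), a histone-binding subunit of NuRD, fell as well. Rbbp4 did not pass without any single Y-KO library or the second Y-Scr library (adjusted p up to 0.23). The HP1 gene Cbx1 (0.17), the HUSH subunit Mphosph8 (0.15) and Morc3 (-0.11) did not pass, though Cbx1 (0.31) and Mphosph8 (0.44) did with the trend removed, and Cbx1 also without the second Y-Scr library (adjusted p = 0.048). In the fit with the trend removed, 24 of the list rose (70.6%) and 3 fell (8.82%). In that fit 25.0% of all genes tested rose and 18.6% fell. Among the other autosomal protein-coding genes with 400 or more counts, 29.6% rose and 21.1% fell.

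**Figure D5:**
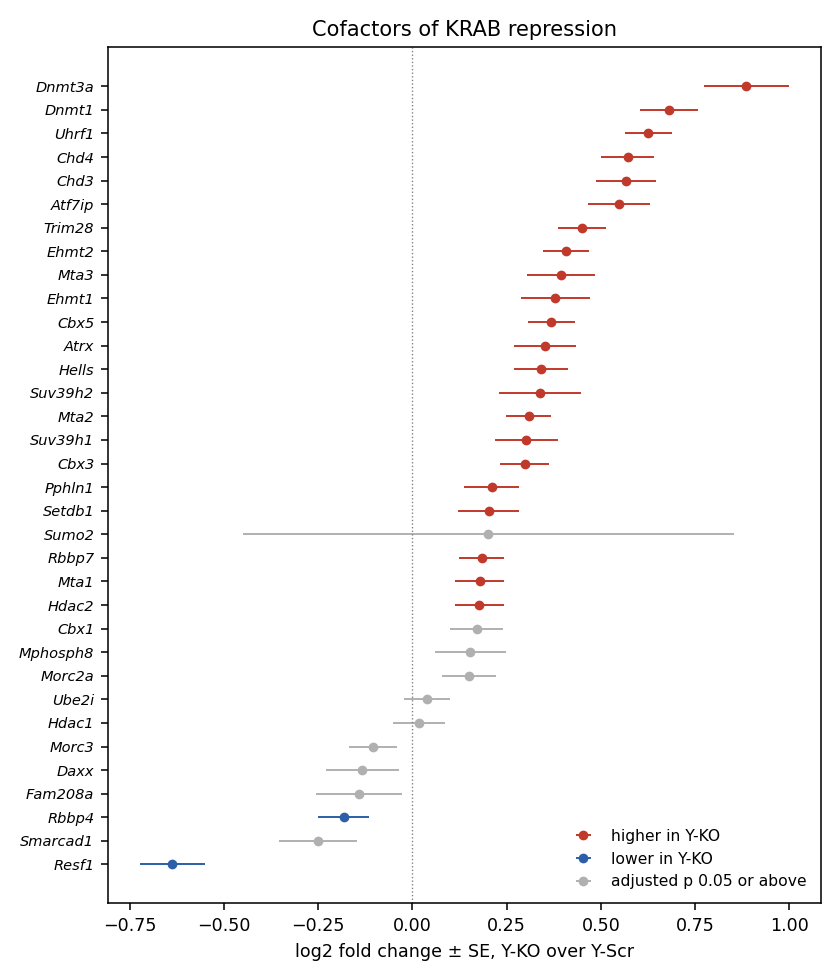
Log2 fold change of Y-KO over Y-Scr with its SE (horizontal axis) for the 34 tested cofactors of KRAB repression, coloured by call. Of these, 22 rose and 2 fell, with Dnmt3a highest at 0.89 and Resf1 lowest at -0.64.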

How the data were processed

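RNA of 3 CRISPR Y-KO and 3 CRISPR Y-Scr samples of MB49 was made into stranded poly-A libraries, per the labels' protocols. The authors deposited raw whole-number counts per gene, with gene lengths. The submitters' processing notes name STAR 2.5.2b, featureCounts 1.5.3 and Trimmomatic 0.39 among the tools, and list the builds mm39 and GRCm39. The deposited coordinates were the same as those of GENCODE M21 (GRCm38) for 53548 of 54495 genes (98.3%), and are printed on that build. No source used here states how strand was treated in counting, so overlapping genes and close copies are uncertain.

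Differences were tested by edgeR's quasi-likelihood method (version 4.0.16, R 4.3.3) on all 6 libraries, with no covariate, TMM factors, robust dispersions and the filterByExpr filter. P-values were adjusted by Benjamini-Hochberg over 12907 genes and called at 0.05. A positive log2 fold change means higher in Y-KO, and the SE is the size of the change divided by the square root of the F statistic. CPM uses TMM-scaled totals. A floor of 3 counts stood at 0.125 to 0.190 CPM; PCR copies were not marked. No library was a copy of another of its group: chi-square values over degrees of freedom were 3.44 to 14.8. KRAB, SCAN and C2H2 patterns were searched in translations of the longest GENCODE coding sequence per gene, since no protein table was given; KRAB meant at least 6 of 8 conserved A-box letters, a minimum moved by 1 after the distribution of matches was seen. GC content is that of annotated transcripts.

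Members, gene lists and tests were chosen with earlier results of these data known. The GC bands, finger bins, protein classes and motifs were chosen after expression values were seen, and their counts carry no test. Named members were the 15 largest rises and falls past the threshold without overlap, up to 3 per cluster by adjusted p, the members nearest the minimum and a written list; some that this rule takes are given here only as counts. A cofactor on the written list is not reported here and is left out of the list's counts. Zfp141, Zfp788, Zfp976 and Zfp639 were named after their values were seen. Alternatives were RLE scaling, DESeq2 1.42.0, no low-count filter, a replicate block, each library's length and GC trend removed as offsets, each library left out, other count minimums and other cluster gaps. The gene test was checked on simulated counts, and the offsets only on simulated counts with a slope on gene length. No GC trend was simulated, so the GC part of the offsets was not checked.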

Additional observations from a re-analysis of the deposited data

How the results depend on the processing

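Of 814 log2 fold changes of 74 named genes under 11 alternatives, 710 kept their direction and side of the threshold, 83 lost a call, 15 gained one and 6 changed sign. Removing the length and GC trend changed most. Members that rose then numbered 44, those that fell 41, and the members' median was 0.021, against -0.09 before; KRAB members that rose numbered 13, those that fell 21, and their median was -0.039. KRAB genes with other names then had 5 that rose and 5 that fell, and the cofactors' median was 0.34. The signs of Zfp809 (0.14), Zfp932 (0.072), Zfp141 (0.031) and Morc3 (0.040) were then positive, as were the medians of the clusters on chromosome 9 from Zfp317 to Zfp599 (0.046), chromosome 2 at 177464733 (0.40) and chromosome 6 at 117841180 (0.095), while those on chromosome 5 from Zfp12 to Zfp655 (-0.15) and chromosome 7 at 4915217 (-0.19) were negative. Without the first Y-Scr library the chromosome 9 median was 0.015, and it was -0.23 without the third. No KRAB gene with another name rose by DESeq2 (0 of 35, against 1).

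Leaving out each library in turn gave 23 to 40 members that rose and 47 to 69 that fell, with medians of -0.10 to -0.062. For KRAB members it gave 2 to 5 and 35 to 52, with medians of -0.25 to -0.19; for members without KRAB 20 to 35 and 12 to 17, with medians of 0.02 to 0.08; for KRAB genes with other names 0 to 1 and 9 to 15; and for the cofactors 18 to 22 and 1 to 4, with medians of 0.24 to 0.29. The low and high ends came without the second Y-Scr library for 2 KRAB members that rose and for 9 KRAB genes with other names that fell, and without the third for 4 cofactors that fell. Zfp809 ranged from -0.28 to 0.12. Clusters with a median below 0 numbered 12 to 16. Replicate numbers did not pair the samples, since the deviations of same-numbered libraries from their group means correlated at -0.06, -0.03 and -0.02. With the number as a replicate block 33 members rose and 55 fell, and 1 cofactor fell, with a cofactor median of 0.30. The cause of the changes with the trend removed was not tested.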
